A study of Mus musculus with 2 samples.

Results

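Open chromatin inside repeat-derived sequence was described in megakaryocyte progenitors, the blood precursors of the cells that release platelets. A region was taken as repeat-masked when its strongest summit lay over 1 kb from every GENCODE M21 protein-coding start site and at least 90% of the window around the summit (75 bp each side) was in lower case in the GRCm38.p6 reference, the assembly of mm10, where lower case marks soft-masked repeats. There were 227 such regions among 80938 open regions in all, 65549 of them distal, that is over 1 kb from a protein-coding start site. The 227 made up 0.346% of the distal regions, and the comparison set was the other 65322. Signal and reproducibility decided which regions were listed and which summit was taken, for repeat-masked and other regions alike. Within the list, the position of the summit and the letters of the reference alone set the 227 apart. Motifs and uniqueness were read from the same letters but were not part of it.

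The assay was ATAC-seq, in which a transposase cuts accessible DNA and leaves adapters there. The material was primary cells of 5- to 6-week-old C57BL/6J males. There was 1 group with 2 biological replicates of 50000 cells each, and no treated or mutant group. The labels say neither how the cells were purified nor whether animals were pooled. With 1 group, no test over samples exists. Values are therefore set beside the same value in the other distal regions and in each replicate's own list. Shares carry a 95% Wilson interval, which covers counting error only. The signal of a region is the value that the authors' peak caller gave its strongest summit, and read depth is unknown.

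Promoter peaks, within 1 kb of a start site, were listed at 7 of 15 megakaryocyte marker genes, 8 of 10 erythroid, 7 of 10 granulocyte, 6 of 10 monocyte and macrophage, 5 of 10 B cell and 4 of 9 T cell markers, against 60.1% of all 21829 protein-coding genes. Of the longer lists, 22 of 24 megakaryocyte regulators (91.7%) and 20 of 30 megakaryocyte and platelet genes (66.7%) had one. Defining megakaryocyte genes without one included Gp1bb, Gp6, Ppbp, Vwf, Selp, Tubb1 and Clec1b. The part that cells of other lineages had in the repeat-masked regions was not tested.

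A large share of the mouse genome derives from transposable elements, many of which are kept closed by DNA methylation and repressive histone marks. Some families brought transcription factor sites with them as they spread. In mouse, short interspersed elements of the B2 family, which are copied from RNA polymerase III transcripts, are known to carry sites for CTCF, the zinc finger protein that anchors chromatin loops and insulates domains. Soft-masking also covers simple repeats and satellites, and the reference gave no family names for the masked stretches, so none is given to the regions here.

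The windows below show the CTCF core with the sequence around it. All lines give the bases within 75 bp of the summit in GRCm38.p6 (in the last line, of the centre of a copy), read in the direction of the motif, with a match to the CTCF core CCANNAGNNGGC in capitals. The first 4 are among the 5 strongest regions. The next 2 belong to the largest group of similar windows, of which Cpsf6 is the representative. Trpc2 comes from another group, though a stretch of its region also matches the Cpsf6 window. Names are those of the nearest protein-coding gene.
Mbnl1, chr3:60320338-60320488, plus strand: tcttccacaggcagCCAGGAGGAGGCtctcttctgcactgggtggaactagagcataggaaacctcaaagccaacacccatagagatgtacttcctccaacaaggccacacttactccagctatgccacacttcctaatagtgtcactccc
Tmod3, chr9:75521912-75522062, plus strand: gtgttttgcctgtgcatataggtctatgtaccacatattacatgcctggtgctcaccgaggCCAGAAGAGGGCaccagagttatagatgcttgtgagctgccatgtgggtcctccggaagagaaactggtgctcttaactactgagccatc
Acat1, chr9:53594893-53595043, plus strand: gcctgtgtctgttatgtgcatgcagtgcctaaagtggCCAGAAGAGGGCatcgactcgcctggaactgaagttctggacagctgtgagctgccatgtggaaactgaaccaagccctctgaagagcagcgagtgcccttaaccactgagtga
Thoc7, chr14:13950521-13950671, minus strand: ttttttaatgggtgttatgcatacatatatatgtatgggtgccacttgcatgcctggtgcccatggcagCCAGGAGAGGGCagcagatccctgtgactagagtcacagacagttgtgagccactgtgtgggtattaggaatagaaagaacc
Ttc7, chr17:87321789-87321939, plus strand: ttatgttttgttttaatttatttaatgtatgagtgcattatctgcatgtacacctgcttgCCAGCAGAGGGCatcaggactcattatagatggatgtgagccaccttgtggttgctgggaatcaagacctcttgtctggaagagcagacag
Cpsf6, chr10:117363197-117363347, plus strand: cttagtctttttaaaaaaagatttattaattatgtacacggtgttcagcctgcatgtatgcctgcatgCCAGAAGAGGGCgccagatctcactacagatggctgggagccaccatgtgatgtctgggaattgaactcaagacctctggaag
Trpc2, chr7:102076800-102076950, minus strand: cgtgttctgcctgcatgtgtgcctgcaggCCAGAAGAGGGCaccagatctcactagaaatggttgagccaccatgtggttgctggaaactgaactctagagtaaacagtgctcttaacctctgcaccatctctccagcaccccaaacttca
Unlisted copy, chr17:23759296-23759446, minus strand: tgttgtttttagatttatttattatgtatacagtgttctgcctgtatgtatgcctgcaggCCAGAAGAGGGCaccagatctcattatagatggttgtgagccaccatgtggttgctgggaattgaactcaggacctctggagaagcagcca
The last line is no open region. It is the closest copy of the Cpsf6 window, at 88.5% identity over 86.8% of its length, that held the core and overlapped no region of the conservative or the longest list of both libraries. Its core word, CCAGAAGAGGGC, was the same as at Tmod3, Acat1, Cpsf6 and Trpc2, whereas 4% of its 32-mers occurred once in the reference.

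Among the 19 motifs counted, the CTCF core showed the largest difference in percentage points between the open repeat-masked windows and the other distal windows. A core lay in 117 of the 227 windows, or 51.5% (45.1 to 57.96), against 13.5% (13.3 to 13.8) of the other distal windows and 13.7% of all distal windows. In windows called from replicate 1 alone the shares were 45.3% in repeat-masked and 13.8% in other distal windows, and from replicate 2 alone 45.5% and 14.4%. The difference was 31.3 ± 0.322 percentage points (SD, n = 2 replicates), far above the spread between the replicates. Repeat-masked sequence as such did not hold the core this often: of 7753 masked windows lying 1 kb from distal summits and overlapping no listed peak, 6.44% (5.91 to 7.004) had it, and of the 58 such windows beside the 227 regions, 3 did. Where present, the core sat close to the summit, at a median of 12.5 bp in repeat-masked and 10.5 bp in other distal windows, and within 20 bp in 69.2% (60.4 to 76.9) and 77.1% (76.2 to 77.9).

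Most of the 117 windows shared not only the core but its free letters. The word CCAGAAGAGGGC filled it in 83 of the 117 (70.9%), against 1122 of 8848 (12.7%) other distal windows with a core. Over all masked distal sequence, with or without a peak, the same word filled a like share of the cores, 36349 of 51191 (71.0%), against 86 of 28768 (0.299%) in unmasked distal sequence. CCAGAAGGGGGC followed in 7 repeat-masked windows and CCAGCAGAGGGC in 5, against 136 and 662 other distal windows. Repeat-masked windows held 18 different words in all, and other distal windows 191, from a far larger number of windows.

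Matches to 19 motifs were counted, each on both strands of the window. The polymerase III B box GTTCNANNC, the inner promoter of transfer RNA genes and of many short interspersed elements, lay in 49 repeat-masked windows (21.6%, 16.7 to 27.4) and in 4.43% of other distal windows. Its share was of the same size in the masked windows without a peak, 25.4% (24.5 to 26.4). Of the 49 windows, 42 also held a CTCF core. The RUNX motif TGTGGTT, bound by RUNX1, which megakaryocytes need to mature, lay in 42 (18.5%, 14.0 to 24.1) against 9.26%, and in 11.2% of the masked windows without a peak; 32 of the 42 also held a CTCF core. KLF GGGTGTGG was in 14 windows (6.17% against 2.92%), and NFE2 GCTGAGTCA, the site of a factor required for platelet release, in 7 (3.08% against 1.26%). Over the replicates' own lists the excess was 12.7 ± 1.12 percentage points for the B box, 5.94 ± 0.523 for RUNX, 4.03 ± 1.71 for KLF and 2.11 ± 0.579 for NFE2 (SD, n = 2).

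**Figure D1:**
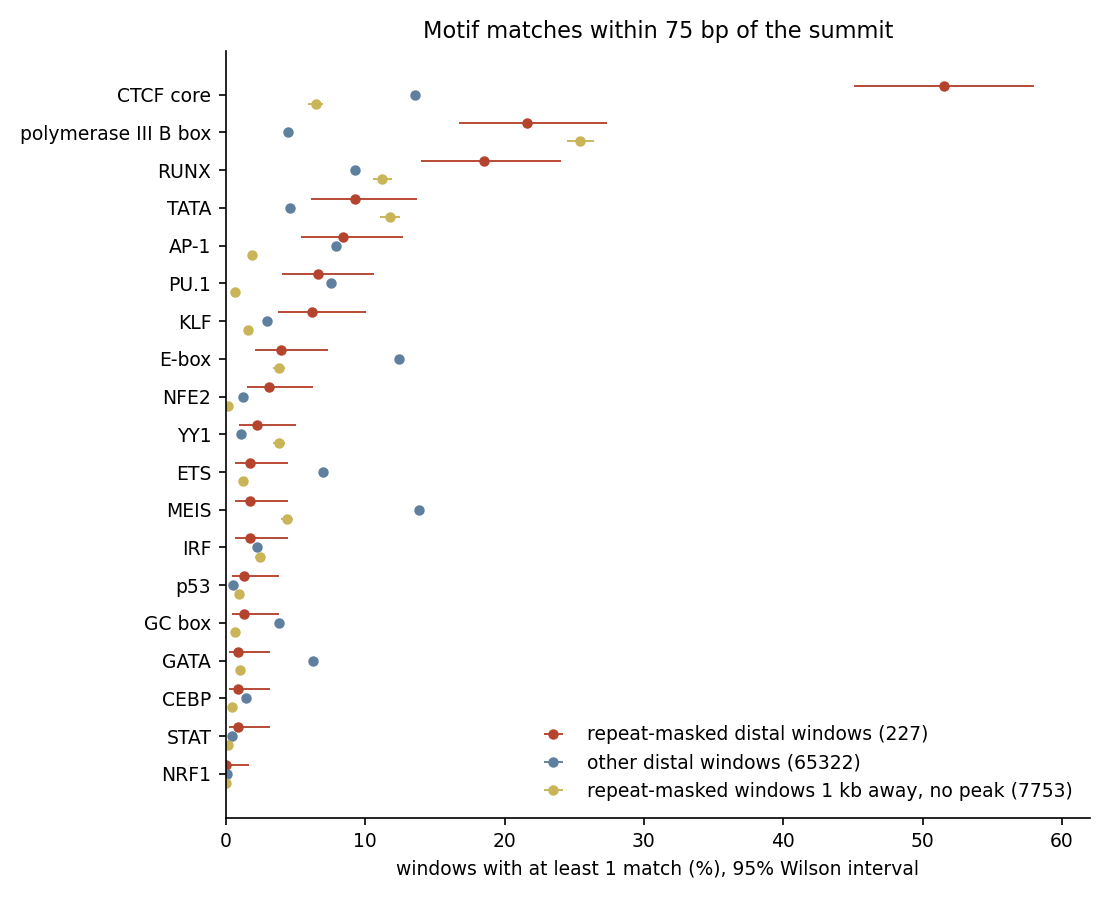
Percentage of windows with at least 1 match to each of 19 motifs (points, with 95% Wilson intervals) in the 227 repeat-masked distal windows, in other distal windows and in repeat-masked windows 1 kb away without a peak. The CTCF core stands at 51.5% in the open repeat-masked windows and at 13.5% and 6.44% in the others, while the B box is as frequent in masked windows without a peak.

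The GATA, ETS, MEIS and E-box motifs were rarer in repeat-masked than in other distal windows, the opposite of RUNX, KLF and NFE2. The GATA motif, spelt AGATAAG and bound by GATA1 and GATA2, lay in 2 windows (0.881%, 0.242 to 3.15) against 6.28% of other distal windows. ETS CNGGAAGT, read by FLI1 and ERG among others, lay in 4 (1.76%, 0.687 to 4.44) against 6.94%, and the MEIS motif TGACAG also in 4, against 13.8%. The E-box CAGCTG lay in 9 (3.96%, 2.10 to 7.36) against 12.4%. Across the replicates' own lists the deficit was -4.42 ± 1.13 percentage points for GATA, -3.46 ± 1.54 for ETS, -10.5 ± 0.556 for MEIS and -6.07 ± 1.16 for the E-box (SD, n = 2), so each lay below the other distal windows in both replicates. These motifs were also rare in the masked windows without a peak, at 0.993%, 1.20%, 4.37% and 3.805%. PU.1, the ETS factor of myeloid and B cells, with GAGGAAGT (15 windows, 6.61% against 7.56%) and the stress-responsive AP-1 with TGANTCA (19, 8.37% against 7.92%) differed from the other distal windows by less than the replicates differed from each other, and both were more frequent than in the masked windows without a peak, at 0.632% and 1.91%. A match is a run of letters and says nothing of binding.

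Of the 15 windows with PU.1, 8 were of 1 kind. When windows were joined at 70% identity over 70% of their length, the second largest group held 20 regions, of which 8 had the PU.1 motif, 5 a CTCF core and none the GATA or ETS motif. The strongest was the Mbnl1 region, whose PU.1 match lies on the other strand of the window printed above. Its CTCF core was centred at -55.5 bp relative to the summit, and the PU.1 match lay nearer to it. The next are shown with the PU.1 motif in capitals. Both also held a CTCF core, left in lower case. It was centred 43.5 bp from the summit at Tnfsf10 and 38.5 bp at Clec14a.
Tnfsf10, chr3:27291532-27291682, plus strand: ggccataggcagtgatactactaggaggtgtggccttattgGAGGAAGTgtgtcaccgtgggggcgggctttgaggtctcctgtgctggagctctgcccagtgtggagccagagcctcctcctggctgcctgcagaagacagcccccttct
Clec14a, chr12:58334264-58334414, minus strand: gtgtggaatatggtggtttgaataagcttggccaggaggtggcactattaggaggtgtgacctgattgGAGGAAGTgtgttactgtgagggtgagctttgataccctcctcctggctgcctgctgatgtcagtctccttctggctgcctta
The region near Tnfsf10, which encodes the death ligand TRAIL, had a signal of 13.5, with 11.4 in replicate 1 and 12.5 in replicate 2, and 40.8% of its 32-mers occurred once in the reference. That near Clec14a, a C-type lectin of the endothelium, had 13.2, with 10.3 in replicate 1 and 12.2 in replicate 2, and all of its 32-mers were unique. Of the 8 regions with PU.1, 5 were listed in both replicates.

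Similar sequence joined many of the regions. Leaving out 7 windows made mostly of tandem repeats of 1 to 6 bp units, 48 of 220 windows fell into 10 groups at 80% identity over 80% of the window, and 172 stood alone. The largest group held 27 windows, 25 of them with the CTCF core, 15 with the B box and 12 with RUNX. At 70% identity over 70% of the window it grew to 114 windows, 93 with the core (81.6%), 43 with the B box and 32 with RUNX. Of the 113 regions outside it, 24 had a CTCF core (21.2%). The core was thus held mainly by 1 family of similar windows, which are not independent of each other. Of the 114, 35.1% were listed in both replicates, and of the other 113, 36.3%.

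Of the next 4 groups, only the pair of Trpc2 and Gm7075 held the CTCF core, in both windows. Stretches in both regions were also copies of the Cpsf6 window, at 81.7% identity for Trpc2 and 83.2% for Gm7075. The pair is thus related to the largest group. The 2 windows near Olfr161, an olfactory receptor gene, lay 475.9 kb and 239.6 kb from its start site, were 99.3% identical to each other and held the B box, in capitals below. None of their 32-mers was unique. The group of 4 windows with Nbea and the group of 3 with Smo had neither motif and are shown in lower case throughout.
Olfr161 a, chr16:3115036-3115186, minus strand: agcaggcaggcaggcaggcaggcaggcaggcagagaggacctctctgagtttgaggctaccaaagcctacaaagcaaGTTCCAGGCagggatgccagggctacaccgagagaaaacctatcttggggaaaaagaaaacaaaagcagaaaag
Olfr161 b, chr16:3351343-3351493, plus strand: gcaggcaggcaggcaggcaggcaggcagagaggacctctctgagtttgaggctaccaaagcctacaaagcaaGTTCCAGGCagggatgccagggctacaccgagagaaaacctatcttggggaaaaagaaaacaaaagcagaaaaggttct
Nbea, chr3:56575575-56575725, plus strand: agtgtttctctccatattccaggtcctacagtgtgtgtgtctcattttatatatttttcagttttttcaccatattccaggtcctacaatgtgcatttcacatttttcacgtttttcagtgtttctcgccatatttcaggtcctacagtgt
Smo, chr6:29748832-29748982, plus strand: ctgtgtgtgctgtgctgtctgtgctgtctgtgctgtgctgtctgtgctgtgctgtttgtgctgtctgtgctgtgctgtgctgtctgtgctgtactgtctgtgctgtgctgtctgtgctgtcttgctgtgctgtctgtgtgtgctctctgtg

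Repeat-masked sequence was rarely open. Of all genome positions over 1 kb from a start site with a window of known bases, 17.6% were at least 90% masked, against 0.346% (0.304 to 0.394) of distal summits. Conservative regions covered 0.0372% of the masked positions, 1.10% of the partly masked and 2.16% of the unmasked ones. In the replicates' own lists the covered share of masked positions was 0.0218% for replicate 1 and 0.0204% for replicate 2, and that of unmasked positions 1.60% and 1.48%. Masked windows are also less unique in the reference, and the part of that in the difference was not tested.

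The masked stretches at the summits were short, though the rule itself sets the high masked share within 75 bp of the summit. At the summit 92.5% of repeat-masked regions and 10.1% of other distal regions had a lower-case base, and 200 bp to the right of it, in reference coordinates, the shares were 45.4% and 20.03%. At 1 kb they were 28.2% and 25.5% on the right and 39.6% and 25.7% on the left. At 1030 bp they were 36.6% and 25.7% on the right and 39.2% and 25.8% on the left. A fall away from the summit follows from the rule, and near 1 kb a difference between the sets remained on both sides. Its size on the right changed over short distances, so no side is singled out. The masked stretch that held the summit, present in 210 of the 227 regions, had a median length of 174.5 bp, and its nearer end lay a median of 54 bp from the summit. Windows 1 kb away without a peak were themselves masked beside 58 of 414 (14.0%, 10.996 to 17.7) for the repeat-masked regions and 7695 of 119569 (6.44%, 6.30 to 6.58) for the others.

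**Figure D2:**
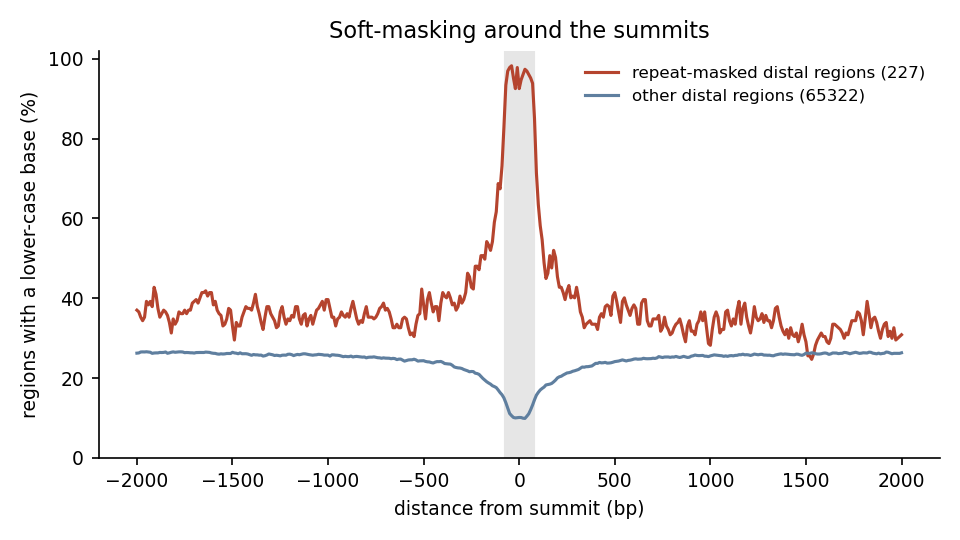
Percentage of regions with a lower-case reference base (y axis) by distance from the summit in bp (x axis), for the 227 repeat-masked and the 65322 other distal regions, with the 75 bp on each side that the rule used shaded. The masked regions fall to 45.4% at 200 bp, while the other regions dip to 10.1% at the summit.

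The share of masked regions was lower among strong regions. With the distal regions cut by signal into 10 classes of equal size, from weakest to strongest, 30, 24, 31, 29, 31, 27, 20, 16, 11 and 8 regions were repeat-masked, which is 0.458% in the weakest class and 0.122% in the strongest. Among the regions that only the longest list of both libraries holds, 338 of 49255 were masked (0.686%, 0.617 to 0.763). Each replicate's own thresholded list held 106 of 47953 in replicate 1 (0.221%) and 134 of 46481 in replicate 2 (0.288%), a mean of 0.255% ± 0.0475 (SD, n = 2).

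**Figure D3:**
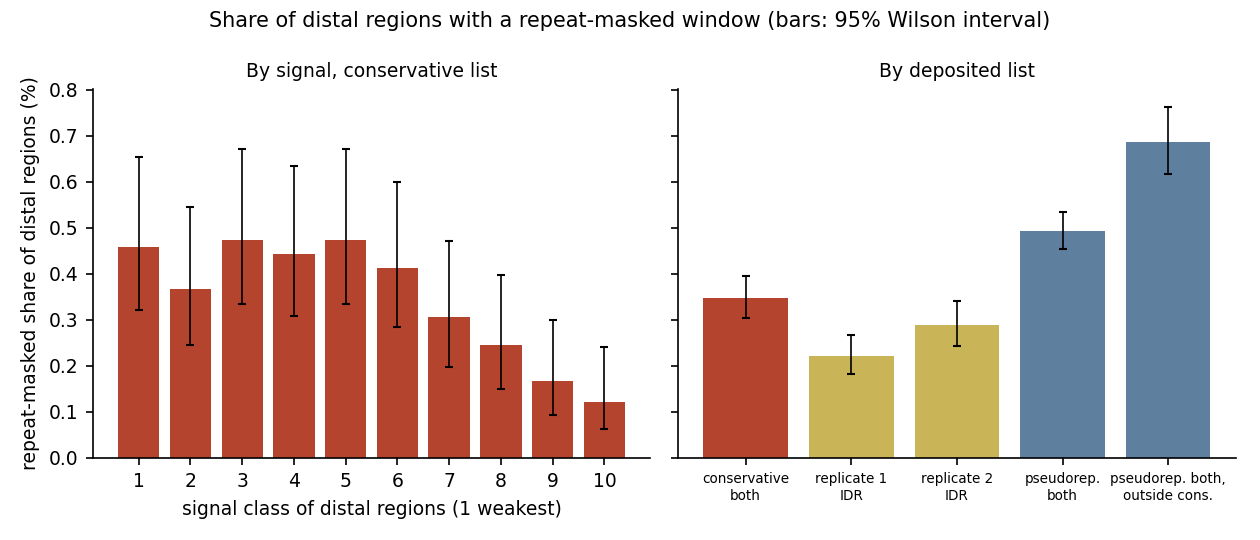
Percentage of distal regions that are repeat-masked, by class of signal (10 of equal size) in the conservative list (left) and by deposited list (right), with 95% Wilson intervals. The share is 0.458% in the weakest class and 0.122% in the strongest, and 0.686% among regions outside the conservative list.

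The signal of the repeat-masked regions had a median of 7.87 (quartiles 6.31 and 9.60, range 3.14 to 20.1), against 8.74 for other distal regions (quartiles 6.64 and 11.5). In the replicates' own lists the median was 8.17 in masked and 8.91 in other distal regions for replicate 1, and 8.57 and 9.47 for replicate 2, a difference of -0.821 ± 0.109 (SD, n = 2). The masked regions were also narrower, at a median of 274 bp against 420 bp, and 88.1% had a single summit against 74.5%. They held fewer CpGs, 1.05 per window on average against 2.59, and 47.6% (41.2 to 54.1) held none, against 16.01% (15.7 to 16.3). Their GC content was 48.3% at the median, against 50.3%.

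Fewer of them were seen in both replicates. A region in each replicate's own thresholded list covered 81 of the 227 (35.7%, 29.7 to 42.1), against 59.8% of the other distal regions and 59.7% of all distal regions. This was so at like signal too, except among the strongest. With distal regions cut at the quartiles of signal, from weak to strong, 13.0%, 22.4%, 50% and all 28 of the masked regions were in both lists, against 23.2%, 43.8%, 75.2% and 96.5% of the others. In the longer lists of both replicates 87.2% (82.3 to 90.96) of the masked regions were found, against 97.01%. For the 81 shared ones the signal of replicate 2 over replicate 1 had a median log2 ratio of 0.14 (SD 0.17), against 0.08 (SD 0.19) for 39060 other shared regions, and regions with and without the core were listed in both replicates alike, 35.0% (27.0 to 44.0) and 36.4% (28.0 to 45.7).

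**Figure D4:**
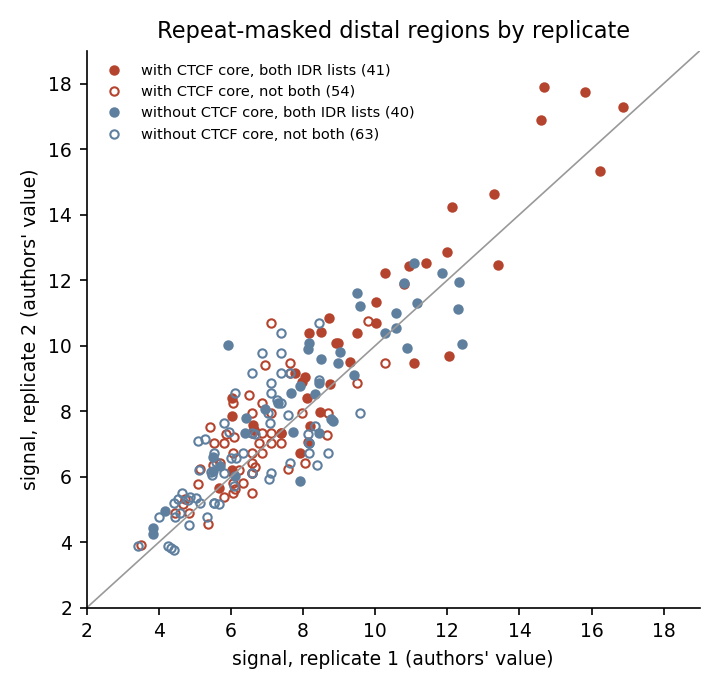
Authors' signal of the 198 repeat-masked regions found in the longer lists of both replicates, replicate 1 on the x axis and replicate 2 on the y axis, by presence of the CTCF core (colour) and of a region in both thresholded lists (filled). The points lie along the line of equal signal, and the strongest regions, at the upper right, hold the core.

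The 10 strongest regions seen in both replicates were, with 1 exception, regions with a CTCF core. Of the next 10, 4 had one, and over all members the median signal was 7.75 with the core and 8.08 without it. The strongest lay 152 kb from Mbnl1, a splicing regulator, between genes at chr3:60320109-60320979, with a signal of 20.1 and values of 16.9 in replicate 1 and 17.3 in replicate 2. In an intron of Tmod3, which caps the slow ends of actin filaments, the region at chr9:75521840-75522125 had 19.3, with 15.8 in replicate 1 and 17.7 in replicate 2. Its core was centred 8.5 bp from the summit and every 32-mer of its window was unique.

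The region in an intron of Acat1, a mitochondrial thiolase, at chr9:53594656-53595257 had 17.98, with 14.7 in replicate 1 and 17.9 in replicate 2. The region 10.6 kb from Thoc7, of the complex that couples transcription to messenger RNA export, overlapped an annotated exon at chr14:13950463-13950719 and had 17.5, with 14.6 in replicate 1 and 16.9 in replicate 2. Replicate 2 was the higher in both, and the windows of both were unique throughout.

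The region near Gm10203 had 17.8 (16.2 in replicate 1, 15.3 in replicate 2), that in an intron of the junctophilin gene Jph3 15.98 (13.3 and 14.6 in replicates 1 and 2), and that 8.57 kb from Bloc1s4, a subunit of the complex that builds lysosome-related organelles such as platelet dense granules, 15.4 (12.1 and 14.2). Regions near Ocm, a calcium-binding protein, and Otulin, a deubiquitinase of linear ubiquitin chains, had 15.1 (13.4 and 12.4) and 13.98 (12 and 12.8). The exception without a core was the Olfr161 region at chr16:3114886-3115244, with 13.8 (11.9 and 12.2). In it no 32-mer was unique.

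In the largest group of 27 the strongest were those in introns of Zfp53, a zinc finger gene, with 11.9 (10.3 in replicate 1 and 10.4 in replicate 2), and of Ttc7, with 11.8 (10.03 and 11.3). No CTCF core was found in the Zfp53 window, whereas the Ttc7 window held one. Their group ranged in signal from 3.98 to 11.9 around a median of 7.75, and 5 of its 27 regions were listed in both replicates. The strongest of the group of 4 lay between genes, 392 kb from Nbea, with 9.56 (8.43 and 8.87). Its group ranged in signal from 3.77 to 9.56 around a median of 4.75. Of its 4 regions, 1 was listed in both replicates. In the group of 3 the region in an intron of Smo, the transducer of Hedgehog signals, had 11.8 (10.6 and 11.01), and the region near Cd200 7.58, listed in replicate 2 only. In the pair with Trpc2, a cation channel gene, that region had 12.2 (12.04 and 9.69), while its partner near Gm7075 had 3.73 and was in neither thresholded list.

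The open repeat-masked windows were less unique in the reference than other distal windows. The median share of 32-mers found once in the reference was 89.2% (quartiles 76.7% and 99.2%) in repeat-masked windows and 100% in other distal windows. All 32-mers were unique in 50 masked windows (22.0%) and none in 7, against 92.0% and 0.667% of other distal windows. The 7 included the 2 windows near Olfr161, with signals of 13.8 and 9.02, and the 2 near Gvin1 and Gm4070, with 9.92 and 9.91. A further 2 lay at the start of chromosome 9 near Gm11168 and Gm10721, with signals of 4.19 and 3.77. Both belong to the group of 4 with Nbea. The last, near Ajap1, was 88.1% tandem repeat. In replicate 1 the Gvin1 region had 9.03 and the Gm4070 region 9.42, and in replicate 2 they had 9.79 and 9.12.

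The commonest core word of the open repeat-masked windows was then looked up over the whole genome. It was picked from those windows, and 83 of them held it. The open places below are therefore not independent of those windows, and the shares are a description. CCAGAAGAGGGC occurred at 36349 distal places with a masked window, and 122 of them (0.336%, 0.281 to 0.401) lay in a conservative region, 9.01 times the share of masked positions in general. Where under 50% of the window's 32-mers were unique, 7 of 26806 places were open (0.0261%). At 50 to under 90% it was 66 of 8513 (0.775%, 0.610 to 0.985), at 90 to under 100% 33 of 764 (4.32%, 3.09 to 6.00), and where all were unique 16 of 266 (6.02%, 3.74 to 9.55). Replicate 1 gave 0.0261%, 0.282%, 2.09% and 4.14% in the same order, and replicate 2 gave 0.0187%, 0.317%, 1.83% and 4.14%. Unique copies are both easier to map and more diverged, and these cannot be told apart here.

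**Figure D5:**
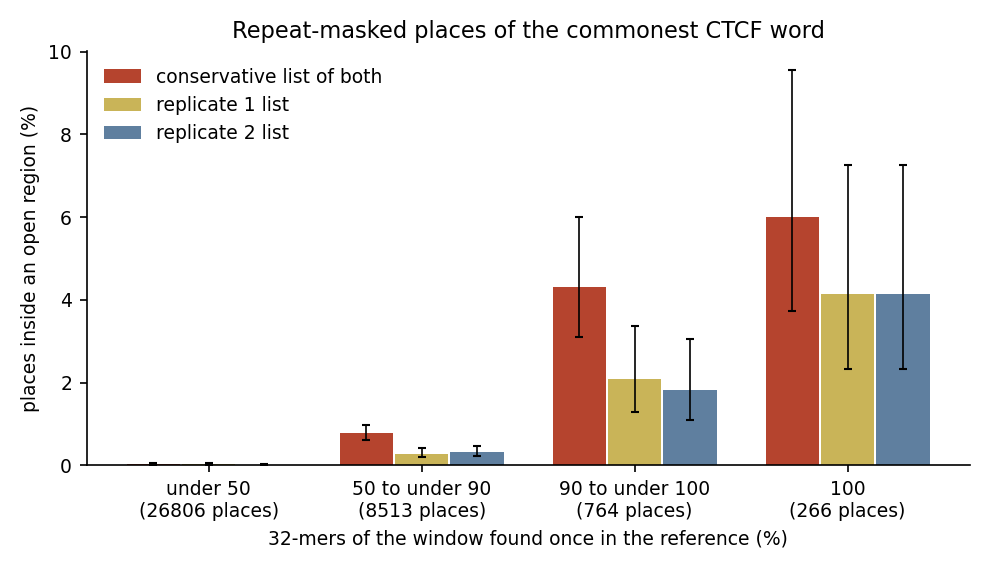
Percentage of the repeat-masked distal places of the word CCAGAAGAGGGC that lie in an open region (y axis), by the share of 32-mers of the window found once in the reference (x axis), in the conservative list and each replicate's list, with 95% Wilson intervals. The share open is 0.0261% where under 50% of 32-mers are unique and 6.02% where all are.

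In windows that were only partly masked the same word was open at 1228 of 13071 places (9.39%, 8.91 to 9.91), and in unmasked windows at 9 of 86 (10.5%, 5.60 to 18.7). The core with any letters was open at 0.344% of 51191 masked, 9.74% of partly masked and 16.1% of unmasked places, which is 9.23, 8.89 and 7.43 times the share of all positions of the same class. The ratio was thus of like size inside and outside masked sequence, as it was in replicate 1 (7.61, 8.85 and 8.06 times) and replicate 2 (8.63, 9.62 and 8.73 times). The GATA motif, by contrast, was open at 0.626 times the share of masked positions and at 1.60 times that of unmasked ones, and MEIS at 0.524 and 1.12 times. In masked windows only 14 GATA and 44 MEIS places were open. The ETS motif, which few open masked windows held, was open at 2.49 times the share of masked positions (2.26 and 2.56 times in the replicates) and at 1.94 times that of unmasked ones. The polymerase III B box was open at 2.24 times the share of masked positions (1.98 and 2.28 times in the replicates) and at 0.954 times that of unmasked ones. PU.1 stood at 3.35 and 3.59 times, and RUNX at 2.91 and 1.77 times. NFE2 was open at 10 of 1263 masked places, 21.3 times the share of masked positions, and at 3.01 times that of unmasked ones. The own lists of the replicates rest on 6 and 3 such masked places, which gave 21.8 and 11.7 times. Masked places of the commonest core word were open less often with a B box than without. It was 50 of 28792 (0.174%) with one and 72 of 7557 (0.953%) without. Replicate 1 gave 0.0729% and 0.490%, and replicate 2 gave 0.0660% and 0.503%. Places with a B box were also less unique, at a median of 28.3% of 32-mers against 46.7%. The part of uniqueness in this difference was not tested.

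Among copies of the Cpsf6 window at 80% identity or more over 80% of its length, 30 of 1135 (2.64%, 1.86 to 3.75) overlapped a conservative region. With the CTCF core it was 24 of 666 (3.604%, 2.43 to 5.31), and without it 6 of 469 (1.28%, 0.588 to 2.76). The 24 include the Cpsf6 window itself, without which it was 23 of 665 (3.46%, 2.32 to 5.14), and 10 of these 23 and 1 of the 6 are themselves among the 227, so the shares are a description. The intervals of the open shares with and without the core overlap. The median share of unique 32-mers was 56.8% in copies with the core and 64.8% in those without it. The part of uniqueness in the open shares was not tested. Of the 94 copies at 85 to 90% identity none was open, which allows a share of up to 3.19% (3 counts of the total; Wilson upper bound 3.93%), and those copies were 47.6% unique at the median.

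The repeat-masked regions lay a median of 17.0 kb from the nearest protein-coding start site, against 22.0 kb for other distal regions. Those with a CTCF core lay nearer, at 12.5 kb, than those without, at 24.7 kb. Other distal regions had the same order, with medians of 19063.5 bp with the core and 22639 bp without it. By annotation 49.3% were in introns, 48.0% between genes and 2.64% in exons, against 47.4%, 47.4% and 5.26% of other distal regions. A masked region lay within 50 kb of 457 protein-coding genes, 2.09% of 21829. None of 24 megakaryocyte regulators and none of 30 megakaryocyte and platelet genes had one, where a count of 0, taken as 3 counts of the total, allows a share of up to 12.5% and 10% (Wilson upper bounds 13.8% and 11.4%), so the background rate could not have been told from none. Of 28 genes that silence repeats 3 did (10.7%, 3.71 to 27.2): Trim28, the corepressor that zinc finger proteins recruit to retroelements, at 39.4 kb with a signal of 8.24, Pphln1, of the HUSH complex, at 18.96 kb with 11.9, and Zfp809, a zinc finger repressor of retroviral sequence, at 5.00 kb with 5.48.

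The threshold on masking cut through a continuous range. Just inside it 17 windows were 90.1% masked, with a median signal of 8.57 and a CTCF core in 47.1%, and just outside it 21 windows were 89.4% masked, with 8.74 and 33.3%. No masked base was found in 52.4% of distal windows, and 68 of the 227 were masked throughout.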

How the data were processed

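ATAC-seq peak lists of 2 libraries of megakaryocyte progenitors were analysed, on mm10 per the labels. The deposited lists give for each summit a signal value, which the authors' peak caller made and which was used as deposited with no rescaling, and the −log10 of the p-value that the authors deposited. Some lists rest on 1 library and some on both. The sources used here do not give the aligner, the peak caller, the read shift for the transposase or the handling of multiply mapped reads, and the last bears most on repeats. The depth of the libraries is not known.

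Summits of the same interval were joined into regions, and the conservative list thresholded on the irreproducible discovery rate (IDR) was the main list. Lower-case bases were read from the GRCm38.p6 reference, and the source of its masking is not stated there. A region was shared when the overlap reached 50% of one of them. Unique 32-mers were counted over both strands of 21 chromosomes. Windows were aligned with blastn 2.17.0, and everything else was computed in Python 3.11.15 with numpy 2.4.6 and pandas 2.3.3. Measures were tested on simulated data. Named genes were those nearest the 10 strongest regions listed in both replicates and the 2 strongest of each of the 5 largest groups; the remaining part of the rule, regions near megakaryocyte genes, found none. Genes near PU.1 windows, without unique 32-mers and of the silencing list were added after their values were seen. Regions, motifs and gene lists were chosen with earlier results of these data known.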

Additional observations from a re-analysis of the deposited data

How the results depend on the processing

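The number of repeat-masked regions and their share of distal regions depended on the rule. There were 594 (0.906%) at 80% masking, 68 (0.104%) at full masking, 373 (0.569%) with 50 bp on each side of the summit and 80 (0.252%) among the stronger 50% of regions, while 100 bp on each side moved the share to 0.244%. The own lists of the replicates gave 106 to 134 regions and 0.221% to 0.288%. The median signal was 7.38 at full masking, 7.58 with 50 bp, 10.6 in the stronger 50% by construction and 8.17 to 8.57 in the own lists. The share listed in both replicates was 68.8% in the stronger 50% and 87.2% with the longer lists of each replicate. The median share of unique 32-mers was 95.8% at 80% masking, 82.5% at full masking, 97.1% with 50 bp, 86.2% with 100 bp, 92.1% in the stronger 50%, and 92.1% to 93.3% in the own lists.

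The share of windows in a group of at least 10, 11.9%, depended most on the setting. It was 7.74% at 80% masking, 16.1% with 50 bp, 11.98% over 2 kb from a start site, 11.4% away from any gene start, 9.87% in the other IDR-thresholded list and 59.0% when joined at 70% identity. It was 0% at full masking, with 100 bp, in the stronger 50%, joined at 90% identity and in both own lists (0% to 0%). The ETS share was 3.70% at 80% masking, 0% at full masking, 4.38% with 100 bp and 2.24% to 4.72% in the own lists.

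The CTCF core share, 51.5%, was varied after the data were seen. Other distal windows held the core in 13.5% at the main setting and in 13.8% and 14.4% in the own lists of replicates 1 and 2. Their share was not computed at the other settings. In repeat-masked windows it was 50.3% at 80% masking, 47.1% at full masking, 40.5% with 50 bp, 50% with 100 bp and 52.1% over 2 kb from a start site. It was 50.7% away from any gene start, 47.1% in the other IDR-thresholded list, 47.5% in the stronger 50% and 45.3% to 45.5% in the own lists. The other 30 recomputed values stayed within their limits, which were 1.5 times for the number of regions (160 with 100 bp), the Wilson interval for the share listed in both replicates and 1 SD of the replicates' own lists for the rest. The cause of these shifts was not tested. No paired analysis was possible because there is 1 group of samples; repeat-masked and other regions were set against each other within each replicate. Depth is unknown, and the 227 regions limit shares near 1% to intervals several percentage points wide.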
